A study of Mus musculus with 55 samples.

Results

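The Thy1 sort of mouse liver was compared after partial hepatectomy (PH, surgical removal of part of the liver) and in normal liver, across all genes. Its members are 4 of the 55 libraries of a series on 10 sorted liver populations: 2 libraries of cells labelled Thy1 cell from normal liver and 2 from liver after PH. All 4 are labelled with the strain C57B/L6 and liver as the tissue, and their labels name no transgene, drug or other agent. Treatment is the only labelled difference. The time after surgery, the age of the mice and the sorting gate are not given in the sources used here. Nor is the number of animals behind a library, and nothing says whether replicates came from separate animals. The p-values measure spread between libraries, taken from all 20 groups of the series unless another fit is named. Values are FPKM (fragments per kilobase of transcript, scaled to library size). This scaling alone does not make levels fully comparable between genes or libraries, and the balance of higher and lower calls depended on the scaling, as given below.

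Thy1 (CD90) is a small surface glycoprotein carried by portal fibroblasts, the matrix-producing cells of the connective tissue around the portal vein and bile ducts. It is also found on T cells and on some mesothelial and lymphatic endothelial cells. Portal fibroblasts make elastic fibres, fibrillar collagens and small proteoglycans, whereas the mesothelium is the single-layered sheet that covers the liver surface. After PH the remaining lobes grow back by division of hepatocytes and of non-parenchymal cells, with growth factor signals, matrix remodelling and plasminogen activation in the tissue.

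The first question was which cells the 4 libraries hold, and the lists of marker genes show a mixture. Markers of portal fibroblasts, mesothelium and endothelium were all abundant, as the plot of marker lists shows. Thy1 itself stood at 377 and 85.7 FPKM in the normal libraries and 54.6 and 33.4 FPKM after PH. Its normal mean was the highest of the sorts (231 FPKM, against 80.6 FPKM in NPD, the sort labelled non progenitor ducts), but normal library 2 lay within the range of the 2 normal NPD libraries (74.6 and 86.5 FPKM). Dpt (dermatopontin, a fibroblast matrix protein) stood at 610.2 and 1072 FPKM in the normal libraries and 354 and 14.5 FPKM after PH. For both genes the normal libraries lay above the PH libraries, and PH library 2 was the lowest (log2 change -2.05, SE 0.68, limma adjusted p = 0.038 for Thy1; log2 change -3.45, SE 0.96, limma adjusted p = 0.012 for Dpt). Clec3b, another fibroblast marker, stood at 388 and 610.4 FPKM in the normal libraries and 215 and 14.9 FPKM after PH.

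The list of 15 fibroblast markers had a mean log2(FPKM + 1) of 7.35 and 7.58 in the normal libraries and 6.97 and 4.68 after PH, and a summed level of 5169 and 6737 FPKM against 3956 and 1091 FPKM. Of these 15 genes 8 were lower and 0 higher, against 8.34% lower and 4.72% higher over all genes tested. The count of lower genes was 6 and 3 without normal library 1 and 2, 8 without PH library 1 and 0 without PH library 2, it was 0 with a pseudocount of 0.1, and 1 of the 8 (Entpd2) was called in each of the 3 fits described below. Of the 12 mesothelial markers 1 was lower (Rspo1), and their mean was 7.43 and 7.41 against 7.23 and 6.62. The 12 endothelial markers stood at 6.36 and 6.92 in normal liver and at 7.0 and 7.95 after PH, with 0 of 12 called. The 12 sinusoidal endothelial markers stood at 6.13 and 6.38 against 6.55 and 8.01, with 1 higher, Gpr182, at 50.3 and 119 FPKM against 207 and 526 FPKM. Their summed level was 1768 and 1414 FPKM against 1303 and 3583 FPKM, so by sums PH library 1 lay below both normal libraries. The endothelial sums were 1567 and 1925 FPKM against 2056 and 3967 FPKM. In PH library 2 the endothelial lists stood above the fibroblast list. In PH library 1 the fibroblast mean (6.97) was near the endothelial mean (7.0) and above the sinusoidal mean (6.55). By sums the fibroblast list stood above both there (3956 FPKM against 2056 and 1303 FPKM). The data after PH thus go beyond fibroblast markers alone, and the samples are called the Thy1 sort here.

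**Figure D1:**
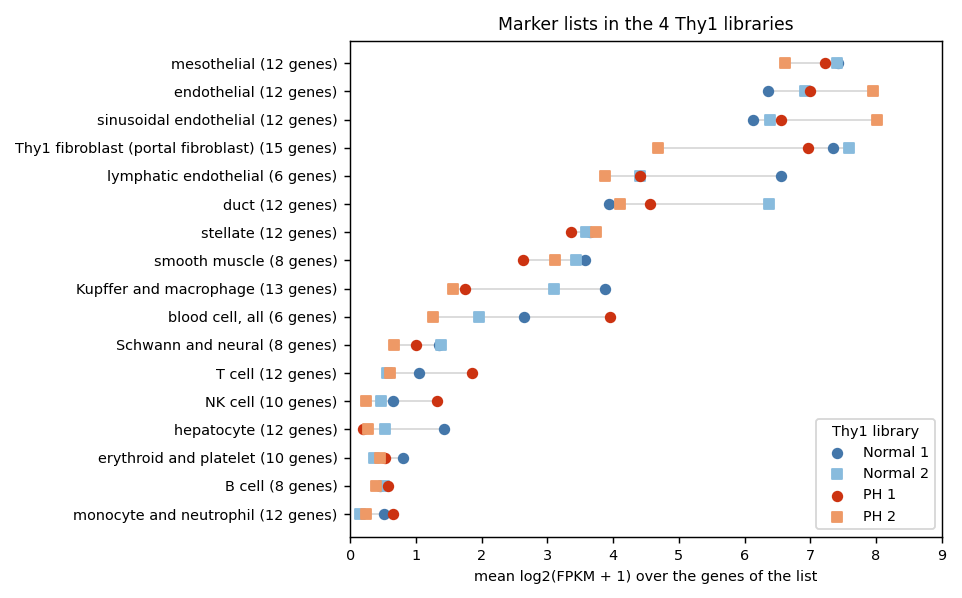
Mean log2(FPKM + 1) over the genes of 17 marker lists (x axis) in each of the 4 Thy1 libraries (points; circles are replicate 1, squares replicate 2). The fibroblast list is lowest in PH library 2 (4.68), in which the endothelial and sinusoidal endothelial lists are highest (7.95 and 8.01).

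Single libraries also differed in other markers. The lymphatic list was highest in normal library 1 (6.56, against 3.88 to 4.41 in the others) and the duct list in normal library 2 (6.37, against 3.94 to 4.56). The Kupffer list stood at 3.87 and 3.10 in normal liver and at 1.75 and 1.56 after PH, and the list of general blood cell genes was highest in PH library 1 (3.95, against 1.26 to 2.64). Most hepatocyte markers (8 to 11 of 12) were listed at 0 in every library. The T, NK, B cell and neutrophil lists were low throughout, at most 1.85. In such bulk samples fewer cells of a type and less RNA per cell cannot be told apart. The calls of Thy1 and Gpr182 were lost without normal library 1 (adjusted p 0.21 to 0.52). The calls of Dpt and Entpd2 were lost without normal library 2 (adjusted p 0.07 to 0.1). The call of Thy1 was lost without PH library 1 (adjusted p 0.052). The calls of Thy1, Dpt, Clec3b, Entpd2, Gpr182 and Rspo1 were lost without PH library 2 (adjusted p 0.11 to 0.72).

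Across all genes 13389 were tested with limma on log2(FPKM + 1), with the spread taken from all 20 groups of the series because 2 against 2 libraries leave little to estimate it from. At a Benjamini-Hochberg adjusted p under 0.05, 1749 genes differed (13.1% of those tested): 632 were higher after PH (4.72%) and 1117 lower (8.34%). The counts of the gene lists below are to be read beside these shares of 4.72% higher and 8.34% lower. The pooled spread assumes that Thy1 libraries vary like the others, and a gene near 0 in most sorts gets a small spread. In another fit the Thy1 libraries were given a weight of their own, which scaled their spread as a whole. The spread of each gene still came from all 20 groups. In this fit, called the separate spread below, 975 genes passed (7.28%), 312 higher (2.33%) and 663 lower (4.95%). With the spread of each gene taken from groups in which it averaged at least 1 FPKM, 807 passed (6.03%), 390 higher (2.91%) and 417 lower (3.11%). In all 3 fits 595 genes passed (4.44%), 257 higher (1.92%) and 338 lower (2.52%), and these are called held below; a held gene could still lose its call without 1 library, as given at the end of each paragraph. Of the 595, 250 also passed without each library in turn. Fitting the 4 libraries alone, 1 gene passed (Serpinb2) and 2417 had an unadjusted p under 0.05.

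The balance of higher and lower calls depended on the scaling: quantile normalization gave 1084 higher and 948 lower and moved the median of all genes from -0.06 to 0.06 on the log2 scale. Of the genes called under both scalings, 1362 had the same direction and 0 the opposite one. Leaving out PH library 2 left 493 calls (229 higher, 264 lower), against 1203 to 1731 without any other library. Libraries did not overlap between PH and normal for 7117 genes (53.2%), so absence of overlap alone says little.

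The largest rises are described in 2 sets, without a test of the division. The genes of the first set had their highest level after PH, among the NPD, EC, LSEC and HSC sorts, in the NPD sort, in which mesothelial markers were the highest of all sorts (mean log2(FPKM + 1) of 8.65 in normal liver). Serpinb2, an intracellular serpin known as plasminogen activator inhibitor 2 (transcript NM_001174170, chr1:109408000-109422177 in mm9), stood at 0.086 and 0.104 FPKM in the normal libraries and 170.1 and 214 FPKM after PH (log2 change 7.45, SE 0.51, limma adjusted p = 4.4e-14). This was the largest rise and was held, with no overlap between the groups. Pairs of means in other sorts are given as normal liver to PH. The NPD means of Serpinb2 were 0.0917 to 195 FPKM, its EC (endothelial cell sort) means 0.0201 to 10.3 FPKM, and it stayed at or under 0.07 FPKM in the sinusoidal (LSEC) and stellate (HSC) sorts. Timp1, an inhibitor of matrix metalloproteinases, stood at 31.9 and 60.1 FPKM in the normal libraries and 792 and 665 FPKM after PH (log2 change 4.02, SE 0.60, limma adjusted p = 6.8e-06). The means of Timp1 were higher after PH in each of those 4 sorts: 108 to 1196 FPKM in NPD, 5.29 to 102 FPKM in EC, 1.01 to 11.3 FPKM in LSEC and 4.37 to 34.6 FPKM in HSC.

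Slc16a3, the lactate exporter MCT4, stood at 3.8 and 3.85 FPKM in the normal libraries and 37.9 and 43.6 FPKM after PH, and Cd44, the hyaluronan receptor, at 7.23 and 8.51 FPKM in the normal libraries and 73.2 and 52.1 FPKM after PH. Cemip, which drives hyaluronan breakdown, was nearly silent in normal liver and stood at 8.2 and 4.39 FPKM after PH. In the NPD sort the means went from 2.45 to 44.7 FPKM for Slc16a3, 5.74 to 75.6 FPKM for Cd44 and 0.010 to 11.6 FPKM for Cemip. In LSEC, Cd44 and Cemip were under 1 FPKM after PH, whereas Slc16a3 went from 2.03 to 18.9 FPKM. All 5 genes described in this set were held, and each also passed without each of the 4 libraries.

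The promoters of 3 of these genes are shown because they rose most, or rose with the glycolysis genes described below. Each line gives the 250 bases before a RefSeq start (GRCm38.p6, sequences from RefSeq), 5′ to 3′ in the direction of the gene. Capitals mark matches to TGANTCA (the AP-1 site), TATAAA (the TATA box) or ACGTG (the core of the hypoxia response element) on either strand. The windows are chr1:107511173-107511422 on the plus strand, chrX:20869916-20870165 on the plus strand and chr11:120948817-120949066 on the plus strand.
Serpinb2: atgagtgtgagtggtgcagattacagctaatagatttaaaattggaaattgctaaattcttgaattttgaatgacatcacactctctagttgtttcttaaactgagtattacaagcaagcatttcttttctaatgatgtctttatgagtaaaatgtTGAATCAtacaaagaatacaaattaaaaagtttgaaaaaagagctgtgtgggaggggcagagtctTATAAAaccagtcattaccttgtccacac
Timp1: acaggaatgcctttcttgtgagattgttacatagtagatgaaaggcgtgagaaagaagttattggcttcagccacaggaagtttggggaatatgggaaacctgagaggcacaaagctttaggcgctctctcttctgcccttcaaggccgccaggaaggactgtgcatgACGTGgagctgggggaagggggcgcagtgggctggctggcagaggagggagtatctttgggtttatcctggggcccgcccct
Slc16a3: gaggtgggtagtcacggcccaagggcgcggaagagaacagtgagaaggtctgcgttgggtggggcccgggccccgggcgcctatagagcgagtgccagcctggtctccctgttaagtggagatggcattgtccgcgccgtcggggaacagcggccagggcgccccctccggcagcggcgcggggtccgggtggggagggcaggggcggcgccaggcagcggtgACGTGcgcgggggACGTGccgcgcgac
Serpinb2 holds TATAAA at position -29 from the start and TGAATCA at position -94; from a second RefSeq start of the gene the same matches lie at -116 and -181. Timp1 holds ACGTG at position -82, and Slc16a3 holds it at positions -27 and -14. Neither of these 2 windows holds TATAAA or TGANTCA.

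Matches of 5 motifs were counted in the same 250-base window of all genes, on both strands, of which 206 of the 257 held rises and 243 of the 338 held falls had a window. ACGTG was found in 28.5% of the windows of held rises, 15.7% of those of held falls, 21.2% of the genes tested and 16.6% of all windows. TGANTCA was found in 6.37% of the windows of rises, 4.96% of falls and 4.63% of genes tested (6.75% of all windows). TATAAA was found in 7.87%, 9.91% and 6.56% (12.4% of all windows). GGAATG, the TEAD site, was found in 15.7%, 15.5% and 11% (12.6% of all windows). TTTGGCGC, an E2F site, was found in under 1% of each set. Short motifs occur often by letters alone, so these shares describe the windows only. ACGTG holds a CpG, and base composition was not matched between the sets.

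The second set of rises was higher in the endothelial sorts than in the normal Thy1 sort. Inhbb, the activin beta-B subunit, stood at 2.75 and 7.38 FPKM in the normal libraries and 54.7 and 103 FPKM after PH (log2 change 3.76, SE 0.60, limma adjusted p = 1.6e-05), and its LSEC means were 44.6 to 132 FPKM. Rab3b, a GTPase of secretory vesicles, stood at 0.236 and 1.35 FPKM in the normal libraries and 12.1 and 55.2 FPKM after PH, with LSEC means of 10.8 to 65 FPKM. Plxnc1, a semaphorin receptor, stood at 7.22 and 17.5 FPKM in the normal libraries and 96.7 and 237 FPKM after PH, with LSEC means of 253 to 408 FPKM. These 3 genes were held, had PH library 2 as their highest library, and were at most 2.8 FPKM in the NPD sort after PH. Their EC means were 39.7 to 58.6 FPKM for Inhbb, 1.27 to 3.52 FPKM for Rab3b and 105 to 148 FPKM for Plxnc1. In HSC their means were lower after PH. As Thy1 response minus EC response the log2 differences were 3.07, 3.06 and 3.23 (limma adjusted p = 0.015, 0.0053 and 0.026). With the spread from groups of at least 1 FPKM, limma adjusted p was 0.12, 0.15 and 0.13. Their means were also higher after PH in the blood cell sort. They were 0.764 to 110 FPKM for Inhbb, 1.48 to 23.8 FPKM for Rab3b and 10.1 to 227 FPKM for Plxnc1. The sinusoidal list stood at 6.21 in that sort in normal liver and at 8.44 after PH.

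Other genes showed the same order of sorts. Jam2, an endothelial junction protein, stood at 19.1 and 229 FPKM in the normal libraries and 519 and 863 FPKM after PH, and Il13ra2, a decoy receptor for interleukin 13, at 1.15 and 2.55 FPKM in the normal libraries and 15.7 and 36.2 FPKM after PH. B3gnt3, a glycosyltransferase, stood at 3.97 and 20.4 FPKM in the normal libraries and 72.6 and 164 FPKM after PH. Gja5, the arterial connexin 40, stood at 0.397 and 28.8 FPKM in the normal libraries and 54.4 and 83.8 FPKM after PH and was not held. In normal LSEC the means were 331 FPKM for Jam2, 27.3 FPKM for Il13ra2 and 95.2 FPKM for B3gnt3, and Gja5 had 139 FPKM in normal EC. In the blood cell sort the means were 36.3 to 272 FPKM for Jam2, 0.724 to 17.1 FPKM for Il13ra2 and 10.9 to 91 FPKM for B3gnt3. Gja5 went the other way there, from 2.66 to 0.529 FPKM. The 12 general endothelial markers stood at 6.36 and 6.92 against 7.0 and 7.95, so normal library 2 lay near PH library 1. From normal library 2 to PH library 1, B3gnt3 went from 20.4 to 72.6 FPKM and Il13ra2 from 2.55 to 15.7 FPKM. Jam2 went from 229 to 519 FPKM and Gja5 from 28.8 to 54.4 FPKM. The part of the endothelial share in these rises was not tested. The calls of B3gnt3, Gja5 and Jam2 were lost without normal library 1 (adjusted p 0.089 to 0.52). The calls of B3gnt3, Gja5 and Jam2 were lost without PH library 2 (adjusted p 0.079 to 0.15).

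Tubb3, a beta-tubulin best known from neurons, and Sprr2b, a small proline-rich protein of the cornified envelope, had higher means after PH in the LSEC sort as well. Tubb3 stood at 0.376 and 1.2 FPKM in the normal libraries and 20.6 and 51 FPKM after PH (log2 change 4.27, SE 0.37, limma adjusted p = 2e-11), and its LSEC means were 0.401 to 28.7 FPKM. Sprr2b stood at 0 and 1.59 FPKM in the normal libraries and 45.5 and 33.6 FPKM after PH (log2 change 4.64, SE 0.60, limma adjusted p = 4.2e-07), and its LSEC means were 0.485 to 93.4 FPKM. Sprr2b belongs to a cluster of near-identical genes, and how reads shared between copies were counted is not given in the sources used here. Hdc, which makes histamine, stood at 6.67 and 25 FPKM in the normal libraries and 124 and 139 FPKM after PH and was high in both NPD (111 FPKM) and LSEC (182 FPKM) after PH. Thbs4, a thrombospondin, stood at 0.43 and 0.675 FPKM in the normal libraries and 42.8 and 3.48 FPKM after PH and was not held; PH library 1 lay far above PH library 2.

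**Figure D2:**
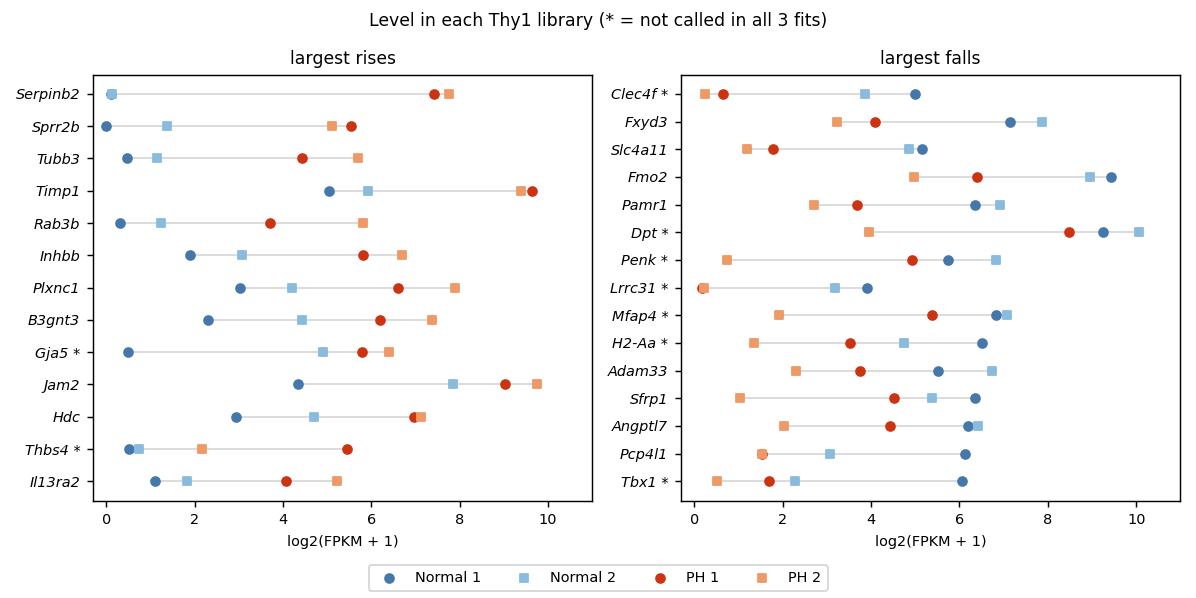
Level, log2(FPKM + 1), of 13 of the 15 largest rises (left) and the 15 largest falls (right) in each of the 4 Thy1 libraries; asterisks mark genes not called in all 3 fits. Rises such as Serpinb2 and Timp1 have both PH libraries far from both normal ones, whereas for Dpt, Penk and Mfap4 PH library 2 lies far below PH library 1.

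For most of the largest held falls the NPD mean was lower after PH as well. Fxyd3, a regulator of the sodium pump, stood at 140.3 and 232 FPKM in the normal libraries and 15.9 and 8.37 FPKM after PH (log2 change -3.85, SE 0.49, limma adjusted p = 3.1e-07). Slc4a11, a transporter of the bicarbonate transporter family, stood at 34.6 and 28 FPKM in the normal libraries and 2.45 and 1.28 FPKM after PH (log2 change -3.52, SE 0.29, limma adjusted p = 8.8e-12). The groups lay far apart for both genes, and their NPD means were 417 to 52.5 FPKM for Fxyd3 and 98.5 to 11.2 FPKM for Slc4a11. Pamr1, a secreted protease-like protein, stood at 80.5 and 119.8 FPKM in the normal libraries and 11.7 and 5.49 FPKM after PH, and Adam33, a metalloproteinase of mesenchymal cells, at 44.8 and 105 FPKM in the normal libraries and 12.4 and 3.91 FPKM after PH. Angptl7, a secreted angiopoietin-like protein, stood at 72.6 and 84.9 FPKM in the normal libraries and 20.6 and 3.06 FPKM after PH, and Fmo2, a flavin monooxygenase, at 685 and 493 FPKM in the normal libraries and 83.2 and 30.2 FPKM after PH. The NPD means were 171 to 37.4 FPKM for Pamr1, 122 to 29.8 FPKM for Adam33, 149 to 17.8 FPKM for Angptl7 and 1134 to 148 FPKM for Fmo2. Lrrc31 (14.1 and 8.07 against 0.131 and 0.171 FPKM) fell but was not held. Beside these falls the mesothelial list stood at 7.43 and 7.41 against 7.23 and 6.62, with 1 of 12 lower. Fxyd3 overlaps Lgi4 and Angptl7 lies within Mtor in the annotation, and whether counting used strand is not given in the sources used here. The call of Fmo2 was lost without PH library 2 (adjusted p 0.15).

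In a second group of falls the 2 libraries of a condition lay far apart. Penk, the enkephalin precursor, stood at 52.2 and 113 FPKM in the normal libraries and 29.6 and 0.676 FPKM after PH, and Mfap4, a microfibril protein, at 112 and 135 FPKM in the normal libraries and 40.3 and 2.77 FPKM after PH. Sfrp1, a secreted Wnt inhibitor, stood at 80.1 and 40.7 FPKM in the normal libraries and 22 and 1.04 FPKM after PH and was held. Pcp4l1 stood at 69.1 and 7.41 FPKM in the normal libraries and 1.89 and 1.91 FPKM after PH, and Tbx1, a T-box transcription factor, at 65.9 and 3.82 FPKM in the normal libraries and 2.22 and 0.434 FPKM after PH. For both the high value came from normal library 1, in which the lymphatic list was highest. Clec4f, a Kupffer cell lectin, stood at 30.7 and 13.7 FPKM in the normal libraries and 0.562 and 0.18 FPKM after PH, and the Kupffer list stood at 3.87 and 3.10 against 1.75 and 1.56. The part of these marker shifts in the falls was not tested. Of the 15 largest falls 8 were held, and of the 15 largest rises 13. The calls of Pcp4l1, Tbx1, Clec4f and H2-Aa were lost without normal library 1 (adjusted p 0.19 to 0.3). The call of Clec4f was lost without normal library 2 (adjusted p 0.06). The call of Clec4f was lost without PH library 1 (adjusted p 0.075). The calls of Penk, Mfap4, Sfrp1, Tbx1, Clec4f and H2-Aa were lost without PH library 2 (adjusted p 0.079 to 0.5).

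Among matrix genes the chains of collagen IV, the network collagen of basement membranes, moved in opposite directions. Its 6 chains are encoded as 3 head-to-head pairs. Col4a1 stood at 182 and 113 FPKM in the normal libraries and 361 and 595 FPKM after PH and Col4a2 at 99.9 and 61.9 FPKM in the normal libraries and 217 and 449 FPKM after PH. The second pair ran the other way, with Col4a3 at 7.22 and 5.93 FPKM in the normal libraries and 1.49 and 0.635 FPKM after PH and Col4a4 at 19.2 and 14.2 FPKM in the normal libraries and 3.44 and 2.19 FPKM after PH. Col4a5 (42.7 and 36.4 against 27.4 and 13.3 FPKM) and Col4a6 (22.3 and 12.3 against 8.75 and 4.38 FPKM) were lower too. The log2 changes were 1.68, 1.97, -1.9, -2.22, -1.0 and -1.28 in that order, with limma adjusted p of 0.016, 0.0056, 1.2e-07, 2.2e-07, 0.029 and 0.0009. Col4a2, Col4a3, Col4a4 and Col4a6 were held, and Col4a3 and Col4a4 also passed without each library. In NPD the means were 23.7 to 127 FPKM for Col4a1 and 36.7 to 12.3 FPKM for Col4a4. Col4a1 was higher in the other sorts, with 347 to 757 FPKM in LSEC, 287 to 390.3 FPKM in EC and 575 to 1254 FPKM in HSC. Col4a1 and Col4a2 were highest in PH library 2, where the endothelial list was highest too (6.36 and 6.92 against 7.0 and 7.95), and its part in these rises was not tested.

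The fibrillar collagens that make up scar and portal matrix did not pass. Col1a1 stood at 414 and 339 FPKM in the normal libraries and 481 and 136 FPKM after PH (log2 change -0.55, limma adjusted p = 0.78), and Col3a1 at 1059 and 937 FPKM in the normal libraries and 2129.5 and 539 FPKM after PH (log2 change 0.11, limma adjusted p = 0.97). For both the PH libraries lay on either side of the normal ones. Over the 22 listed collagens the count was 2 higher and 6 lower of 21 tested, with a median log2 change of -0.56 against -0.06 over all genes tested; it was 0 to 2 higher and 2 to 7 lower when each library was left out in turn. The calls of Col4a5, Col4a6 and Col14a1 were lost without normal library 1 (adjusted p 0.072 to 0.22). The calls of Col4a1, Col4a2, Col4a5, Col14a1 and Col15a1 were lost without normal library 2 (adjusted p 0.065 to 0.17). The calls of Col4a1, Col4a2, Col4a5, Col4a6, Col14a1 and Col15a1 were lost without PH library 2 (adjusted p 0.14 to 0.77).

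**Figure D3:**
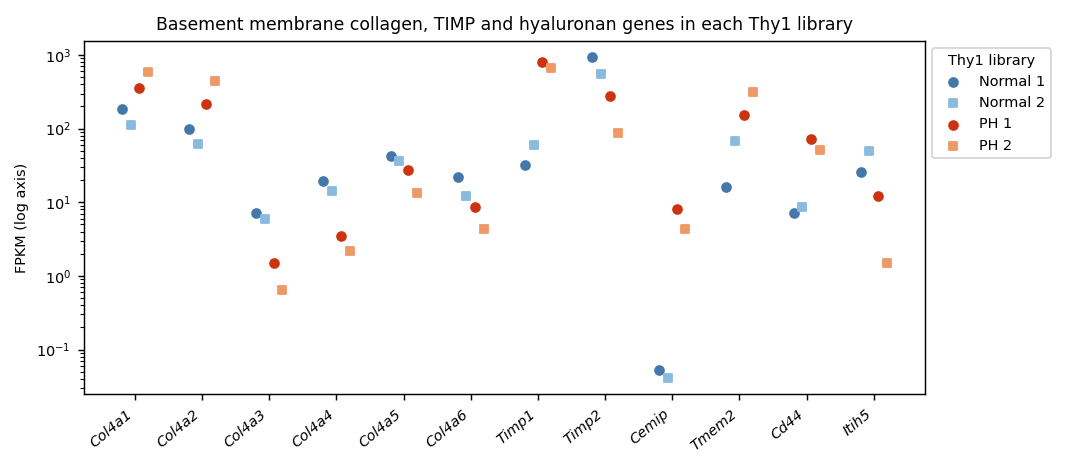
FPKM on a log axis of the 6 collagen IV chains, 2 TIMP genes and 4 hyaluronan genes in each Thy1 library. Col4a1, Col4a2, Timp1, Cemip, Tmem2 and Cd44 are higher in both PH libraries, and Col4a3 to Col4a6, Timp2 and Itih5 are lower in both.

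Elastic fibre genes, a product of portal fibroblasts, were lower more often than higher: 1 higher and 7 lower of 18 tested, with a median log2 change of -1.31. None was held, and the count was 0 to 2 higher and 0 to 8 lower when each library was left out in turn. Efemp1 (fibulin 3) stood at 1128 and 892 FPKM in the normal libraries and 337 and 110.0 FPKM after PH, and Fbln5 (fibulin 5) at 67.1 and 41.5 FPKM in the normal libraries and 16.4 and 10.9 FPKM after PH. Emilin1, an elastin-associated glycoprotein, went the other way, at 51.8 and 41.1 FPKM in the normal libraries and 119 and 253 FPKM after PH. Its means in normal EC, LSEC and HSC were 134, 198 and 558 FPKM, and the part of those cells was not tested. Eln, elastin itself, stood at 254 and 189 FPKM in the normal libraries and 185 and 72.6 FPKM after PH and did not pass (limma adjusted p = 0.55).

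The other matrix glycoproteins and proteoglycans counted 1 higher and 11 lower of 32 tested (median -1.12; 1 to 2 higher and 3 to 13 lower when each library was left out in turn). Prelp, a small leucine-rich proteoglycan, stood at 574 and 200.3 FPKM in the normal libraries and 89.8 and 71.6 FPKM after PH (log2 change -2.07, SE 0.33, limma adjusted p = 2.2e-05), and Abi3bp, a matrix-binding protein, at 99.3 and 49 FPKM in the normal libraries and 20 and 2.89 FPKM after PH (log2 change -2.97, SE 0.49, limma adjusted p = 3.1e-05). These were the 2 held members, and both passed without each library. Ogn (osteoglycin) stood at 316 and 260.4 FPKM in the normal libraries and 162 and 14.8 FPKM after PH, and Fmod (fibromodulin) at 468 and 243 FPKM in the normal libraries and 92.8 and 49.5 FPKM after PH. The fibroblast list stood at 7.35 and 7.58 against 6.97 and 4.68, with most of its fall in PH library 2. Prelp, Abi3bp, Ogn and Fmod already lay below both normal libraries in PH library 1. In NPD the means were 337 to 74 FPKM for Prelp and 47.5 to 12.2 FPKM for Abi3bp. Those of Ogn were 447 to 72 FPKM and those of Fmod 943 to 244 FPKM. The part of the fibroblast list in these falls was not tested. The calls of Emilin1, Efemp1, Fbln5, Ogn and Fmod were lost without normal library 1 (adjusted p 0.07 to 0.18). The calls of Emilin1 and Dpt were lost without normal library 2 (adjusted p 0.1 to 0.14). The calls of Emilin1, Efemp1, Fbln5, Mfap4, Ogn, Fmod and Dpt were lost without PH library 2 (adjusted p 0.26 to 0.73).

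Some enzymes that process collagen, by contrast, were higher after PH. Of the crosslinking enzymes, proteases and inhibitors, 9 were higher and 3 lower of 31 tested (median 0.24; 5 to 6 higher and 0 to 11 lower when each library was left out in turn). Timp2, unlike Timp1, stood at 946 and 556 FPKM in the normal libraries and 278 and 87.8 FPKM after PH (log2 change -2.21, SE 0.56, limma adjusted p = 0.0061). Adamts4, a protease that cuts proteoglycans, stood at 5.75 and 1.87 FPKM in the normal libraries and 31.6 and 45.8 FPKM after PH. Plod3, a lysyl hydroxylase of collagen, stood at 37.2 and 41 FPKM in the normal libraries and 81.4 and 88.5 FPKM after PH, and P4hb, the beta subunit of prolyl 4-hydroxylase, at 274 and 302 FPKM in the normal libraries and 716 and 618 FPKM after PH. These 4 genes were held. P4ha1, the catalytic subunit, stood at 41.1 and 44.3 FPKM in the normal libraries and 87.9 and 94.1 FPKM after PH and rose without being held. Hepatocytes held means of 967 and, after PH, 1632 FPKM of P4hb, and for transcripts at 300 FPKM or more in hepatocytes 5 of 652 values of broadly expressed genes were 0 in the Thy1 libraries (0.767%), against 0.0258% for those at 10 to 300 FPKM and 0.0507% for those under 10 FPKM.

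In the plasminogen system, which dissolves fibrin and activates growth factors, 3 were higher and 1 lower of 19 tested (1 to 2 higher and 0 to 1 lower when each library was left out in turn), against 4.72% higher and 8.34% lower over all genes. Beside Serpinb2, Thbd (thrombomodulin, an endothelial anticoagulant) rose, at 217 and 184 FPKM in the normal libraries and 637 and 1276 FPKM after PH, and Serpine2 (protease nexin 1) fell, at 76.2 and 18.7 FPKM in the normal libraries and 12.9 and 3.08 FPKM after PH. Plaur, the urokinase receptor, stood at 53.7 and 24.3 FPKM in the normal libraries and 104 and 108 FPKM after PH and did not pass (limma adjusted p = 0.16), although the groups did not overlap. Of the hyaluronan genes 4 were higher and 1 lower of 15 tested (3 to 4 higher and 0 to 2 lower when each library was left out in turn). Tmem2, a cell-surface hyaluronan-degrading enzyme, stood at 16 and 68.5 FPKM in the normal libraries and 151 and 309.9 FPKM after PH (log2 change 2.66, SE 0.48, limma adjusted p = 0.00012), Hyal2 at 43.6 and 126 FPKM in the normal libraries and 128 and 229 FPKM after PH, and Itih5, of the family that links hyaluronan to proteins, at 25.4 and 49.6 FPKM in the normal libraries and 12 and 1.5 FPKM after PH. The synthase Has1 stood at 56.6 and 81 FPKM in the normal libraries and 88.7 and 89.6 FPKM after PH and did not pass (limma adjusted p = 0.75). Cemip, Tmem2, Cd44 and Itih5 were held. In normal EC and LSEC the means were 359 and 222 FPKM for Tmem2, 219 and 258 FPKM for Hyal2 and 238 and 182 FPKM for Thbd. All 3 were highest in PH library 2, as the endothelial lists were, and the part of those cells was not tested. The calls of Timp2, P4ha1, Serpine2, Thbd, Eno1 and Hyal2 were lost without normal library 1 (adjusted p 0.067 to 0.61). The calls of Adamts4 and Thbd were lost without normal library 2 (adjusted p 0.055 to 0.1). The call of Eno1 was lost without PH library 1 (adjusted p 0.074). The calls of Timp2, Adamts4, Plod3, P4ha1, Serpine2, Thbd, Eno1, Hyal2 and Itih5 were lost without PH library 2 (adjusted p 0.055 to 0.5).

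Growth factors were lower more often than higher: 2 higher and 13 lower of 33 tested, with a median log2 change of -1.15 (0 to 2 higher and 4 to 13 lower when each library was left out in turn). Hgf, the ligand of the receptor Met and a main growth signal for hepatocytes, was the held rise, at 5.33 and 4.51 FPKM in the normal libraries and 18.8 and 33.8 FPKM after PH (log2 change 2.15, SE 0.55, limma adjusted p = 0.0055). Its LSEC means were 47 to 46.9 FPKM and its HSC means 674 to 1927 FPKM. Held falls were Mdk (midkine) at 23.3 and 38 FPKM in the normal libraries and 4.96 and 4.48 FPKM after PH, Ntf3 (neurotrophin 3) at 14.9 and 29.3 FPKM in the normal libraries and 5.18 and 4.73 FPKM after PH and Bdnf (brain-derived neurotrophic factor) at 6.64 and 4.27 FPKM in the normal libraries and 1.44 and 0.754 FPKM after PH. Igf2 stood at 33.5 and 14 FPKM in the normal libraries and 2.6 and 2.4 FPKM after PH and passed without each library, but missed the threshold with the spread of expressing groups (adjusted p = 0.051). Fgf10 (1.44 and 3.14 against 0.616 and 0.0202 FPKM), a mesenchymal ligand for epithelial receptors, fell without being held. The calls of Ereg and Fgf18 were lost without normal library 1 (adjusted p 0.12 to 0.17). The calls of Ereg, Mdk, Ntf3 and Angpt1 were lost without normal library 2 (adjusted p 0.057 to 0.33). The call of Ereg was lost without PH library 1 (adjusted p 0.14). The calls of Hgf, Ereg, Mdk, Ntf3, Fgf18 and Angpt1 were lost without PH library 2 (adjusted p 0.066 to 0.38).

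In the TGF-beta, activin and BMP families 4 were higher and 8 lower of 33 tested (median -0.49; 2 to 5 higher and 3 to 8 lower when each library was left out in turn). Among ligands Inhbb rose (above), and Tgfb3 fell, at 96.9 and 50.3 FPKM in the normal libraries and 27.2 and 17.9 FPKM after PH. Bmp3 stood at 4.68 and 2.66 FPKM in the normal libraries and 0.404 and 0.121 FPKM after PH and Bmp4 at 66.5 and 109.6 FPKM in the normal libraries and 17.9 and 14.3 FPKM after PH. Among inhibitors, Chrdl1, which binds BMPs, stood at 32.3 and 13.6 FPKM in the normal libraries and 5.49 and 2.27 FPKM after PH, Grem1, another BMP antagonist, at 4.11 and 5.18 FPKM in the normal libraries and 0.838 and 0.0201 FPKM after PH, and Bambi, a decoy receptor, at 9.49 and 15.9 FPKM in the normal libraries and 3.55 and 4.05 FPKM after PH. Tgfb3, Bmp3, Chrdl1 and Bambi were held. Tgfb1 stood at 46.6 and 33.6 FPKM in the normal libraries and 57.9 and 121 FPKM after PH and rose without being held. Its means in normal EC and LSEC were 98 and 151 FPKM, and the part of those cells was not tested. The calls of Tgfb3, Bmp4, Smad6 and Gdf6 were lost without normal library 1 (adjusted p 0.078 to 0.6). The calls of Tgfb1, Bmp4 and Bambi were lost without normal library 2 (adjusted p 0.15 to 0.24). The calls of Bmp4, Bambi and Gdf6 were lost without PH library 1 (adjusted p 0.053 to 0.11). The calls of Tgfb1, Tgfb3, Bmp4, Bambi and Smad6 were lost without PH library 2 (adjusted p 0.071 to 0.65).

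In the Wnt family 1 was higher and 9 lower of 22 tested (median -0.76; 0 to 4 higher and 1 to 9 lower when each library was left out in turn). Rspo1, an R-spondin that strengthens Wnt signals and a mesothelial marker here, stood at 223 and 229 FPKM in the normal libraries and 64.3 and 33.2 FPKM after PH (log2 change -2.27, SE 0.51, limma adjusted p = 0.0018). Wnt5b (5.22 and 7.28 against 2.92 and 1.44 FPKM) and the secreted inhibitors Sfrp1 (above) and Sfrp4 (7.77 and 28.3 against 6.37 and 0.201 FPKM) were the held falls. Wnt9b, a ligand of endothelial cells in the liver, was the rise, at 8.22 and 96 FPKM in the normal libraries and 170.1 and 266 FPKM after PH, and its LSEC means were 39.4 to 499 FPKM. The calls of Wnt2b, Wnt5a and Wnt9b were lost without normal library 1 (adjusted p 0.27 to 0.49). The calls of Rspo1, Wnt2b, Wnt5a, Wnt5b, Wnt9b, Sfrp1 and Sfrp4 were lost without PH library 2 (adjusted p 0.064 to 0.65).

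**Figure D4:**
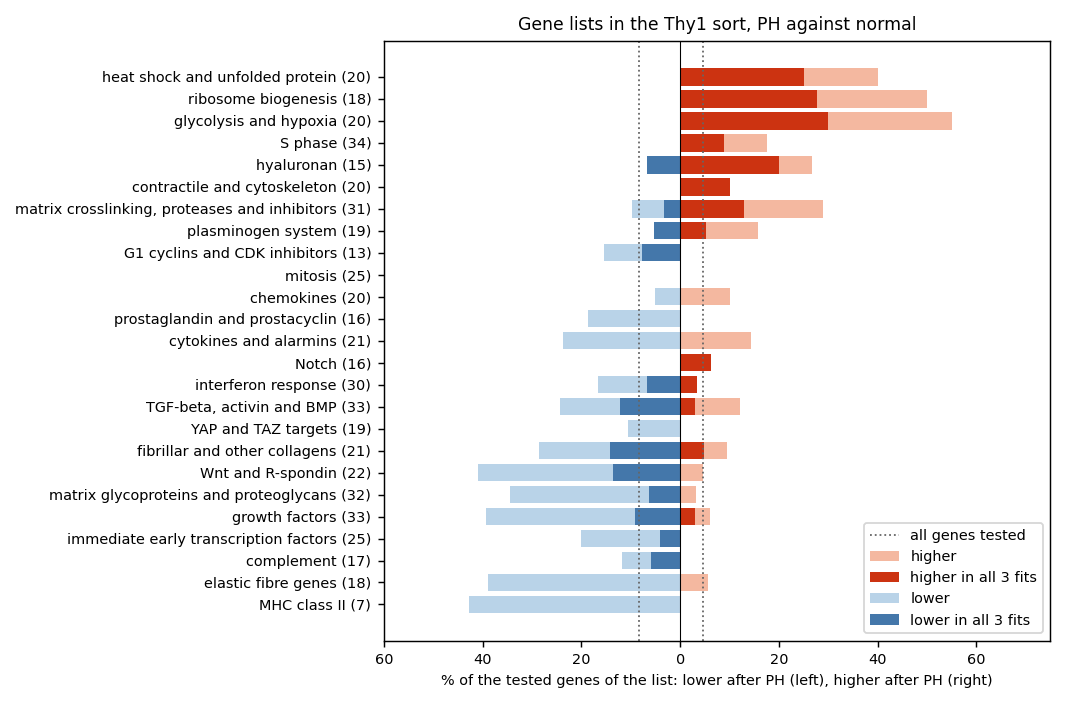
Share of the tested genes of each of 25 gene lists (number tested in brackets) that were lower (left) or higher (right) after PH in the Thy1 sort; dark bars are genes called in all 3 fits, and dotted lines give the share over all genes tested (8.34% lower, 4.72% higher). Glycolysis, ribosome biogenesis and heat shock lists have calls only to the right, and MHC class II, elastic fibre and immediate early lists mostly or only to the left.

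Calls among genes of cell growth and metabolism were nearly all rises. Of the S phase genes 6 were higher and 0 lower of 34 tested, with a median log2 change of 0.86 against -0.06 over all genes (1 to 5 higher and 0 lower when each library was left out in turn). Mcm2, a subunit of the replicative helicase, stood at 4.63 and 7.34 FPKM in the normal libraries and 28.5 and 26.3 FPKM after PH (log2 change 2.05, SE 0.45, limma adjusted p = 0.0014), Mcm3, another subunit, at 12.4 and 14.8 FPKM in the normal libraries and 39.7 and 45.4 FPKM after PH, and Uhrf1, which maintains DNA methylation at replication, at 0.861 and 1.93 FPKM in the normal libraries and 15.4 and 10.3 FPKM after PH. These 3 were held. Ccne1 (cyclin E1) stood at 0.165 and 0.687 FPKM in the normal libraries and 6.91 and 4.21 FPKM after PH and was not held. Of the mitosis genes 0 of 25 passed in limma (0 at each library left out), with a median of 0.06. Mki67, the proliferation antigen, stood at 2.38 and 4.87 FPKM in the normal libraries and 5.2 and 1.89 FPKM after PH, so that the groups overlapped. Over all genes tested 4.72% were higher and 8.34% lower. Of the G1 genes 2 of 13 were lower (0 to 2 when each library was left out): Cdkn1c (p57), held, at 14.8 and 22.3 FPKM in the normal libraries and 7.98 and 4.11 FPKM after PH and Cdkn1b (p27) at 41.9 and 35.4 FPKM in the normal libraries and 22.9 and 15.8 FPKM after PH. The calls of Mcm3, Mcm5, Uhrf1, Ung, Ccne1 and Cdkn1b were lost without normal library 1 (adjusted p 0.057 to 0.16). The calls of Ung, Cdkn1b and Cdkn1c were lost without normal library 2 (adjusted p 0.054 to 0.15). The calls of Mcm5, Uhrf1, Ung and Ccne1 were lost without PH library 1 (adjusted p 0.052 to 0.16). The calls of Mcm3, Mcm5, Ung, Cdkn1b and Cdkn1c were lost without PH library 2 (adjusted p 0.076 to 0.38).

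Ribosome biogenesis, the making of ribosomes in the nucleolus, had 9 higher and 0 lower of 18 tested and a median of 0.94 (4 to 6 higher and 0 lower when each library was left out in turn). Ddx21, a nucleolar RNA helicase, stood at 25.7 and 14.1 FPKM in the normal libraries and 53.8 and 54.4 FPKM after PH (log2 change 1.46, SE 0.27, limma adjusted p = 0.00014), Mybbp1a, a nucleolar protein, at 33.5 and 31.6 FPKM in the normal libraries and 68.1 and 67.8 FPKM after PH, and Nolc1, a nucleolar phosphoprotein, at 15.3 and 14.9 FPKM in the normal libraries and 34.8 and 30.8 FPKM after PH. Each of these 3 was held and passed without each library. Fbl (fibrillarin, which methylates ribosomal RNA) and Rrs1 were the other held members, with Fbl at 3.17 and 4.92 FPKM in the normal libraries and 15.7 and 18.4 FPKM after PH and Rrs1 at 12.1 and 12.9 FPKM in the normal libraries and 35.9 and 27.4 FPKM after PH. The call of Fbl was lost without normal library 1 (adjusted p 0.097). The call of Rrs1 was lost without PH library 1 (adjusted p 0.065). The call of Fbl was lost without PH library 2 (adjusted p 0.12).

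Of the genes of glycolysis and hypoxia 11 were higher and 0 lower of 20 tested, with a median of 0.94 (4 to 8 higher and 0 to 1 lower when each library was left out in turn). Next to Slc16a3 (log2 change 3.11, SE 0.45, limma adjusted p = 4.1e-06), Ldha, the lactate dehydrogenase subunit, stood at 56.6 and 92.9 FPKM in the normal libraries and 296 and 324 FPKM after PH (log2 change 2.08, SE 0.45, limma adjusted p = 0.0012), Pkm, pyruvate kinase, at 113 and 91.2 FPKM in the normal libraries and 299.7 and 357 FPKM after PH, and Hk2, hexokinase 2, at 1.75 and 1.76 FPKM in the normal libraries and 10.4 and 6.94 FPKM after PH. All 4 passed without each library. Pfkl (16.6 and 20.8 against 44.6 and 64.4 FPKM) and Hk1 (26.6 and 28.6 against 43.3 and 72.4 FPKM) were the other held members. The hypoxia targets Ndrg1 and Egln3 did not pass: Ndrg1 stood at 302 and 133 FPKM in the normal libraries and 86.4 and 77.7 FPKM after PH and Egln3 at 23.6 and 9.72 FPKM in the normal libraries and 13.3 and 14 FPKM after PH. Hepatocytes held means of 405 and, after PH, 1163 FPKM of Ldha, and the share of zeros given above for such transcripts touches it; in NPD its means were 41.9 to 246 FPKM. Gapdh stood at 0.0942 and 0.361 FPKM in the normal libraries and 0.812 and 0.964 FPKM after PH and has many processed copies, so its level is uncertain, and Pgk1 and Pgam1 carry the same doubt. Slc16a3 overlaps Csnk1d in the annotation. The calls of Hk1 and Slc2a1 were lost without normal library 1 (adjusted p 0.068 to 0.071). The call of Slc2a1 was lost without normal library 2 (adjusted p 0.19). The call of Slc2a1 was lost without PH library 1 (adjusted p 0.16). The calls of Hk1, Pfkl and Slc2a1 were lost without PH library 2 (adjusted p 0.096 to 0.37).

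Chaperones had 8 higher and 0 lower of 20 tested and a median of 1.07 (3 to 6 higher and 0 lower when each library was left out in turn). Hsp90ab1, the constitutive HSP90, stood at 472 and 410.1 FPKM in the normal libraries and 972 and 1437 FPKM after PH (log2 change 1.42, SE 0.26, limma adjusted p = 0.00014), Hspd1, the mitochondrial HSP60, at 16.9 and 19.1 FPKM in the normal libraries and 58 and 53 FPKM after PH, and Pdia4, of the endoplasmic reticulum, at 89.1 and 71.2 FPKM in the normal libraries and 257 and 238 FPKM after PH. Calr (calreticulin) stood at 496 and 346 FPKM in the normal libraries and 1094 and 1250.3 FPKM after PH, and Hspa8 at 57.6 and 52.3 FPKM in the normal libraries and 122 and 180.0 FPKM after PH. These 5 were held. Of the 20 genes 3 were under 10 FPKM in hepatocytes, and 0 of those 3 passed; Hsp90ab1 and Calr were at 300 FPKM or more there, where zeros were most frequent. The calls of Hspa8, Calr and Hspa5 were lost without normal library 2 (adjusted p 0.06 to 0.27). The call of Hspa5 was lost without PH library 1 (adjusted p 0.078). The calls of Hspa8, Calr and Hspa5 were lost without PH library 2 (adjusted p 0.074 to 0.21).

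Immediate early transcription factors, which respond within minutes to signals and to tissue dissociation, counted 0 higher and 5 lower of 25 tested (median -1.18; 0 higher and 0 to 6 lower when each library was left out in turn). The nuclear receptor Nr4a1 was the held fall, at 561 and 493 FPKM in the normal libraries and 149.7 and 27 FPKM after PH (log2 change -3.02, SE 0.67, limma adjusted p = 0.0015), and its NPD means were 684 to 241 FPKM. Its relatives Nr4a2 (14.7 and 14.4 against 5.32 and 2.73 FPKM) and Nr4a3 (17 and 18.6 against 4.89 and 1.53 FPKM) fell with it. Egr1 stood at 1603 and 1296 FPKM in the normal libraries and 349 and 292 FPKM after PH and Fos at 1712 and 1510.3 FPKM in the normal libraries and 677 and 799.7 FPKM after PH, high in all 4 libraries, and neither passed (limma adjusted p = 0.059 and 0.43). Among targets of YAP and TAZ 0 were higher and 2 lower of 19 tested (0 higher and 0 to 1 lower when each library was left out in turn): Cyr61, a matricellular protein, at 994 and 830.2 FPKM in the normal libraries and 211 and 172 FPKM after PH, and Ptpn14 at 78.4 and 30.9 FPKM in the normal libraries and 22.3 and 20.9 FPKM after PH. Over all genes tested 8.34% were lower, a share near these 2 of 19. Of the cytoskeletal genes 2 of 20 were higher, against 4.72% over all genes tested: Tubb3 (above) and Actn1, an actin crosslinker. Actn1 stood at 51.7 and 40.8 FPKM in the normal libraries and 161 and 148 FPKM after PH (log2 change 1.73, SE 0.30, limma adjusted p = 7.6e-05). Acta2, the smooth muscle actin of activated fibroblasts, stood at 36.4 and 35.9 FPKM in the normal libraries and 25.2 and 45.8 FPKM after PH (limma adjusted p = 0.97), and the groups overlapped. Notch4, an endothelial Notch receptor, was the 1 of 16 Notch genes called, near the 4.72% higher over all genes tested. It stood at 1.84 and 7.85 FPKM in the normal libraries and 14.9 and 31.4 FPKM after PH. Its means in normal EC and LSEC were 39.4 and 45.3 FPKM, and the part of the endothelial lists was not tested. The calls of Egr2, Btg2, Cyr61, Ptpn14 and Notch4 were lost without normal library 1 (adjusted p 0.066 to 0.52). The calls of Egr2 and Cyr61 were lost without normal library 2 (adjusted p 0.07 to 0.081). The calls of Cyr61 and Ptpn14 were lost without PH library 1 (adjusted p 0.056 to 0.064). The calls of Nr4a1, Nr4a2, Nr4a3, Egr2, Btg2, Cyr61, Ptpn14 and Notch4 were lost without PH library 2 (adjusted p 0.061 to 0.64).

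Calls among immune genes were mostly lost without 1 library or another; over all genes tested 4.72% were higher and 8.34% lower. Of 20 chemokines tested 2 were higher and 1 lower (1 to 3 higher and 0 to 1 lower when each library was left out in turn). The 2 rises were Cxcl5 (2.38 and 3.58 against 62.1 and 16.1 FPKM) and Cxcl3 (listed at 0 in both normal libraries, 2.76 and 2.56 FPKM after PH), and Ccl11 (38.5 and 164 against 107 and 4.27 FPKM) had a log2 change of -1.76 that turned to 0.42 without PH library 2. Of the cytokines 3 were higher and 5 lower of 21 tested (1 to 2 higher and 0 to 5 lower when each library was left out in turn); Il1a stood at 2.08 and 23.3 FPKM in the normal libraries and 29.2 and 68.5 FPKM after PH and Il7 at 36.8 and 3.57 FPKM in the normal libraries and 2.48 and 1.1 FPKM after PH. Il6 stood at 21.5 and 47 FPKM in the normal libraries and 76.1 and 13.4 FPKM after PH and the groups overlapped (limma adjusted p = 0.99). None of these was held. Il1a was highest in PH library 2, as the endothelial lists were. Its means in normal EC and LSEC were 196 and 182 FPKM, and the part of those cells was not tested. Of the interferon response genes 1 was higher and 5 lower of 30 tested (0 to 1 higher and 0 to 5 lower when each library was left out in turn). The guanylate-binding proteins Gbp2 (333 and 143 against 92.4 and 65.7 FPKM) and Gbp5 (58.7 and 15.8 against 10.8 and 8.53 FPKM) were the held falls and Oasl1 (2.8 and 4.15 against 18.3 and 12.6 FPKM) the held rise. Of the MHC class II genes 0 were higher and 3 lower of 7 tested (0 higher and 0 to 3 lower when each library was left out in turn), among them H2-Aa (90.9 and 26 against 10.5 and 1.55 FPKM), and none was held. Of the complement genes 0 were higher and 2 lower of 17 tested (0 to 1 higher and 0 to 3 lower when each library was left out in turn), with C2 held at 463 and 252 FPKM in the normal libraries and 122 and 66.9 FPKM after PH. Of the prostaglandin genes 0 were higher and 3 lower of 16 tested (0 to 1 higher and 1 to 4 lower when each library was left out in turn), none held. The MHC class II falls moved with the Kupffer list (3.87 and 3.10 against 1.75 and 1.56), and its part was not tested. The calls of Oasl1, Gbp2, Gbp5, C2, H2-Aa, H2-Eb1, Il1a, Osm, Il7 and Il18 were lost without normal library 1 (adjusted p 0.053 to 0.61). The calls of Ccl11, Csf3 and Il18 were lost without normal library 2 (adjusted p 0.16 to 0.92). The calls of Cxcl5, Osm and Csf3 were lost without PH library 1 (adjusted p 0.12 to 0.21). The calls of Ccl11, Gbp2, Gbp5, C2, H2-Aa, H2-Eb1, Il1a, Il7 and Il18 were lost without PH library 2 (adjusted p 0.087 to 0.76).

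The held genes were then followed in the other sorts, whose libraries are separate from those of the Thy1 sort. Of the 257 held rises 166 (64.6%) changed by at least 1 on the log2 scale in the same direction in NPD, against 10.2% of all genes tested. The next largest shares were in the blood cell sort (37.7%, against 18.2% of all genes) and the Kupffer cell sort KC (28.8%, against 6.95%), where 17.9% also fell by at least 1 (11.7%). They were 21.8% in LSEC (3.37%), 13.6% in EC (3.67%) and 10.1% in HSC (6.74%). In the hepatocyte sort the share was 3.89% (1.70%), and in the biliary sorts cBEC and BEC 2.33% (1.02%) and 0.389% (0.762%). Of the 338 held falls 163 (48.2%) fell by at least 1 in NPD, against 6.3% of all genes. The shares were 27.8% in blood (20.6%), 16.9% in KC (11.7%), 11.2% in LSEC (4.0%), 5.03% in EC (1.76%) and 10.1% in HSC (8.25%). For these falls they were 9.76% in the hepatocyte sort (2.28%), 11.2% in cBEC (5.59%) and 5.03% in BEC (4.40%). In normal liver, 118 held falls (34.9%) had their highest other sort in NPD, against 10.6% of all genes, and 73 (21.6%, against 13.2%) in the biliary sort BEC. Held rises had theirs in blood for 95 genes (37.0%, against 27.9%), in LSEC for 41 genes (16.0%, against 6.99%) and in EC for 34 (13.2%, against 5.31%). These are counts with no test.

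**Figure D5:**
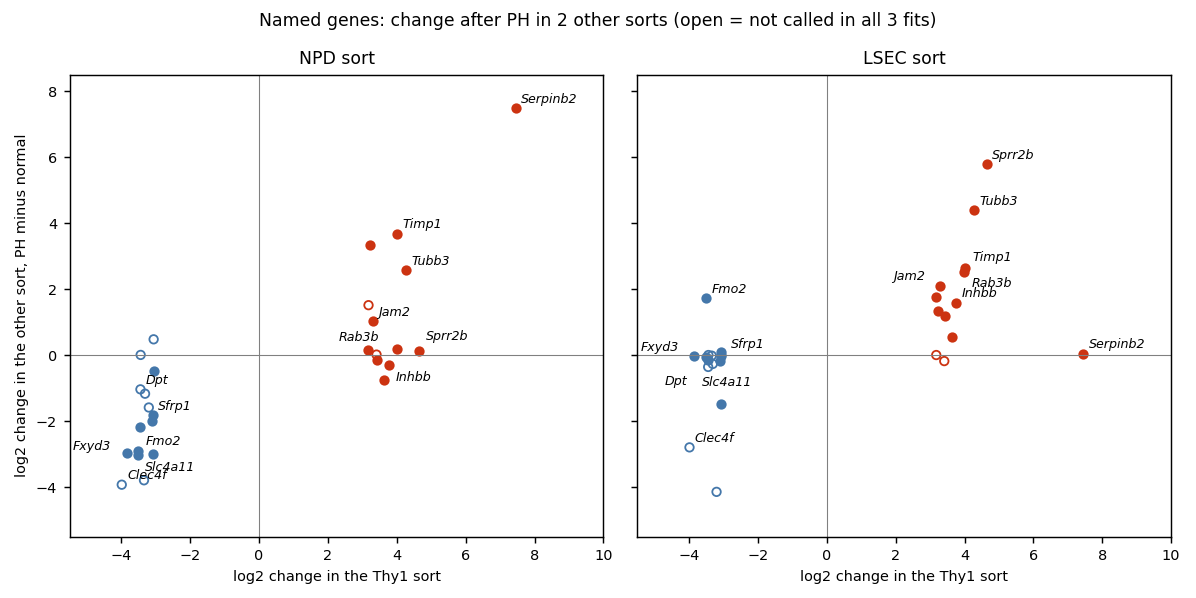
Log2 change after PH of 13 of the 15 largest rises and the 15 largest falls in the Thy1 sort (x axis) against their log2 change in the NPD sort (left) and the LSEC sort (right). Of the 13 rises 6 changed by at least 1 in NPD and 9 in LSEC, and of the falls 12 fell by at least 1 in NPD and 3 in LSEC.

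Differences of response between sorts were tested directly in the fit of all groups. Against the HSC sort 1357 genes responded differently (9.72% of 13958), against EC 767 (5.56% of 13796) and against NPD 207 (1.46% of 14132). With the spread of expressing groups these counts were 487, 37 and 6, and in fits of the compared libraries alone, limma gave 2, 0 and 0, with 1363, 1702 and 1088 genes at an unadjusted p under 0.05. The counts depended on single libraries, with 582, 215 and 60 without PH Thy1 library 2. The EC count was 291 without normal EC library 1. The NPD count was 506, 339 and 499 without normal Thy1 library 1, normal Thy1 library 2 and PH Thy1 library 1, and 120 and 82 without normal and PH NPD library 1. For Serpinb2 the log2 difference was 7.45 (SE 0.69, limma adjusted p = 4.9e-10, and 0.00054 with the spread of expressing groups) against HSC, and 4.05 (SE 0.69, limma adjusted p = 0.00015, and 0.086 with the spread of expressing groups) against EC. Against NPD it was -0.03 (SE 0.72, limma adjusted p = 1, and 1 with the spread of expressing groups), which does not show that the responses are equal. For Timp1 the differences were 1.43 (SE 0.81, limma adjusted p = 0.29, and 0.4 with the spread of expressing groups) against HSC and 0.35 (SE 0.85, limma adjusted p = 1, and 1 with the spread of expressing groups) against NPD.

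By the rule for named genes, the smallest p against HSC belonged to Fam162b, Elfn1, Bcas1 and Ghrh, and all 4 were low in the Thy1 sort (means of at most 7.5 FPKM). Ghrh, the growth hormone-releasing hormone, had means of 7.5 FPKM in normal Thy1 libraries and 0.141 FPKM after PH, and Bcas1, a gene of myelinating cells, 4.49 and 0.0151 FPKM. Fam162b was listed at 0 in all Thy1 libraries and had a mean of 6.43 FPKM in normal HSC and 0 after PH, so that its difference is a change in HSC only. Against EC the difference for Slc4a11 was -3.72 (SE 0.40, limma adjusted p = 3.1e-08, and 0.0031 with the spread of expressing groups), and this was the one of the 4 genes named there (Bcas1, Ghrh, Stmn4, Slc4a11) that also passed with the spread of expressing groups. Against NPD, Stmn4, Pla2g2e, Myoc and Grem1 were named; each fell in the Thy1 sort from means of 3.75, 3.29, 8.65 and 4.64 FPKM to under 1 FPKM, and none of the 4 passed with the spread of expressing groups.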

How the data were processed

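The authors deposited 1 table of FPKM per transcript and library, as the name they gave it states. Per the submitters' processing notes, CASAVA 1.8.2 and Bowtie 1.0.0 were used with the genome build mm9; the counting tool is not given in the sources used here. The table has 36141 rows and 24478 symbols; a symbol with several rows was represented by the one whose average across all 55 libraries was largest. Printed positions follow the table, with starts moved to a 1-based count. FPKM does not give read depth, so no counting interval is given; the summed FPKM of the Thy1 libraries was 643762 to 742942, and 12259 to 13611 genes reached 1 FPKM. Log2 values correlated at 0.898 between the normal libraries, 0.954 between the PH libraries and 0.834 to 0.893 across.

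Genes with at least 1 FPKM in at least 2 libraries of the contrast were tested on log2(FPKM + 1), which understates changes of low genes, with limma 3.58.1 in R 4.3.3 (moderated, trend, robust, two-sided, 1 mean for each of 20 groups, 55 libraries). Fits were run on simulated data with independent noise in each library. Such data cannot show how the fits behave when libraries differ in their mixture of cells, as the Thy1 libraries do. The labels share replicate numbers, but deviations of same-numbered libraries correlated at 0.032, so the numbers were not taken as pairs. Alternatives were a fit of the compared libraries, one without hepatocyte libraries, a separate spread for Thy1 libraries, a pseudocount of 0.1, no filter, quantile and upper-quartile scaling, genes under 10 FPKM in hepatocytes, the mean over rows, a replicate block and leaving out each library. The spread from groups with at least 1 FPKM was added after seeing the data.

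Members, lists (25 of function, 17 of markers) and tests were chosen with earlier results of these data known. Named genes are the 15 largest rises and falls with adjusted p under 0.05, a log2 change of at least 1, no overlap and under 10 FPKM in hepatocytes, without predicted genes, pseudogenes and receptor segments; members of the lists; and the 4 smallest p for each difference of responses. A few genes that meet this rule are not reported here. Promoter sequences are RefSeq's for GRCm38.p6. Plots used matplotlib 3.10.9 under Python 3.11.15.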

Additional observations from a re-analysis of the deposited data

Results flagged for a closer look

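The difference between the response of the Thy1 sort and that of 3 of the 9 other sorts was tested itself, in the fit of all groups. It passed against HSC for 1357 genes, against EC for 767 and against NPD for 207, and for 2, 0 and 0 genes in the compared libraries alone (limma, 1363, 1702 and 1088 at an unadjusted p under 0.05). On the log2 scale, as Thy1 response minus HSC response, the differences were 2.84 for Fam162b, 3.0 for Elfn1, -2.38 for Bcas1 and -2.90 for Ghrh. Fam162b was listed at 0 in all Thy1 libraries, so its value comes from HSC alone. Minus the EC response they were -2.41 for Bcas1, -2.90 for Ghrh, -2.01 for Stmn4 and -3.72 for Slc4a11. Minus the NPD response they were -2.17 for Stmn4, -1.78 for Pla2g2e, -2.48 for Myoc and -1.88 for Grem1.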

How the results depend on the processing

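Against the 1749 genes of the Thy1 comparison there were 1 in the 4 libraries alone, 975 with a separate spread, 694 with a pseudocount of 0.1, 807 with the spread of expressing groups, and 493 to 1731 with each library left out. Against the 1357 genes for HSC there were 2 in the compared libraries alone, 749 with the pseudocount of 0.1, 487 with the spread of expressing groups and 582 to 1711 with a library left out. Against the 767 for EC there were 0 (limma, 1702 at an unadjusted p under 0.05), 159, 37 and 215 to 1140 under the same settings. Against the 207 for NPD there were 0 (1088 at an unadjusted p under 0.05), 26, 6 and 60 to 506, and 131 without hepatocyte libraries, 126 with a separate spread and 432 without a filter. Of the 535 list genes tested 155 were called, 1 in the 4 libraries alone, 95 with a separate spread, 62 with the pseudocount of 0.1, 73 with the spread of expressing groups and 50 to 148 with a library left out. With the replicate block and the compared libraries only, the counts were 485, 0, 0, 0 and 72 (limma, with 1065, 1489 and 954 genes at an unadjusted p under 0.05 for the 3 counts of 0); with the replicate block in all groups the Thy1 count was 1625. The 2 pairs of numbers are not known to pair libraries. The cause of these shifts was not tested. Over all genes tested 13.1% were called, to be set beside the 155 of 535 list genes. For Ccl11 in Thy1, log2 change was -1.76 with all libraries and -3.94 to 0.42 with each library left out, so that its direction turned without PH library 2. Read depth is unknown, so changes of genes near 1 FPKM are the least certain.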
